A study of Mus musculus with 30 samples.

Results

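Among 30 mouse heart libraries, 8 from a pair of groups were compared by their content of red cell transcripts: FF_TAC replicates 1 to 4 and KO_sham replicates 1 to 4. In each library the counts of the alpha globin genes Hba-a1 and Hba-a2 and the beta globin genes Hbb-bs and Hbb-bt, 4 adult haemoglobin genes, were summed and scaled to counts per 1000000 of the library total (CPM), and the libraries were chosen by this sum. A library under 100 CPM was taken as haemoglobin-low and one at or above it as haemoglobin-high, which gave 3 low libraries (FF_TAC 2, FF_TAC 3 and the library labelled KO_sham 2) and 5 high ones. The sum was 3.41 CPM in FF_TAC 2, 1.74 in FF_TAC 3 and 1.396 in the library labelled KO_sham 2. It was 502 and 534 in FF_TAC 1 and 4, and 678, 476 and 441 in KO_sham 1, 3 and 4, so the nearest values on either side of the limit were 3.41 and 441. These values chose the sets and are a description only. All p-values below measure the spread between these samples, which the labels do not tie to separate litters or operating days. The split was observed and not assigned by the study, and each set holds hearts of both groups.

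FF_TAC hearts carry CPT1a floxed alleles and underwent transverse aortic constriction (TAC), which narrows the aorta with a clip and raises the pressure load on the left ventricle. KO_sham hearts carry the cardiac specific CPT1a knockout and underwent sham surgery, so the groups differ in genotype and in surgery at once. All hearts were taken 8 weeks after surgery and flash frozen. The labels name neither the Cre driver nor the age of the mice. For levels only, 4 FF_sham libraries (CPT1a floxed, sham) and 4 KO_TAC libraries (knockout, TAC) of the same cohort were set beside them. The sample titles of KO_TAC name both surgeries, while its treatment labels give constriction. A second cohort of 14 C57Bl/6 hearts, after saline (PBS) or an AAV9 vector carrying Cpt1a under a cardiac troponin T promoter and after sham or TAC, was used for a graded comparison. The study asked what Cpt1a, the gate of mitochondrial entry for long-chain fatty acids, does in the pressure-loaded heart. The comparison below asks instead what else differed between hearts of one group that differed in haemoglobin transcripts.

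Red cells lack a nucleus but keep haemoglobin messenger RNA for some time after leaving the marrow, so whole-tissue RNA carries haemoglobin transcripts from the blood left in its vessels. Immediate early genes such as Fos and Egr1 encode transcription factors whose genes are switched on within minutes of a stimulus, without new protein synthesis. They respond to growth factors, calcium, stretch and wounding. Cytokine and chemokine genes such as Il6 and Cxcl1 follow through factors of the NF-kappa-B and AP-1 families, and endothelial adhesion molecules such as Icam1 and Sele are induced with them.

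Total counts in the 8 libraries ran from 16470938 to 20734227, and mitochondrially encoded transcripts took 20.9% to 24.4% of them, with overlapping ranges in the low and high sets. Levels from here on are CPM on totals scaled by the trimmed mean of M-values (TMM). Summed over 14 cardiomyocyte genes, levels were 88244 to 103106 CPM in the low set and 83813 to 93836 CPM in the high set, so cardiomyocyte transcripts were abundant in both. Cpt1a stood at 20.96 CPM in FF_TAC 2, 16.7 in FF_TAC 3 and 46.8 in the library labelled KO_sham 2, against 49.9 and 34.9 in FF_TAC 1 and 4 and 23.1, 20.8 and 23.8 in KO_sham 1, 3 and 4. The level in the library labelled KO_sham 2 lay above the other KO_sham libraries and within the 38.6 to 53.4 CPM of FF_sham, which goes against its genotype label. FF_TAC 2 and 3 lay at or below the level of the other KO_sham libraries and under every FF_sham library, so their names too stand for the labels as given. Group is a term of every test below and rests on these labels. The part of Cpt1a removed by the knockout is not given, so reads from outside it would still be counted. Atrial transcripts varied too: Myl7, the atrial myosin light chain, was at 608 CPM in the library labelled KO_sham 2, 395 in KO_sham 4 and 75.8 in FF_TAC 1, and under 1 CPM in the other 5. The libraries were made with a strand-preserving kit, but the strand setting of the counting is not given in the sources used here. Genes named below that overlap a gene on the opposite strand are therefore uncertain: A930016O22Rik, AI480526, Alas2, Atcay, Bhlhe40, Ccn2, Cdkn1a, Csf1r, Csf2, Ddit3, Dusp1, Egfl7, Fosl1, H19, Hspa1a, Icam1, Il1a, Il1b, Jun, Junb, Jund, Lyl1, Myh6, Nppa, Ppp1r15a, Selp, Tef, Thbs1, Ttn, Vcam1 and Zfp36.

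The genes that stood furthest apart between the sets were early-response and inflammatory genes. The 250 bases before the start of 7 chosen genes of these kinds are shown so that the motifs of these responses can be compared. They come from RefSeq (GRCm38.p6) and read 5′ to 3′ on the gene's strand. Capitals mark matches, on either strand, to 4 motifs: the CArG box bound by serum response factor, the cyclic AMP response half-site TGACGT, the AP-1 site TGANTCA and the kappa-B site. Adjoining or overlapping matches run together. The windows are chr12:85473640-85473889 (plus strand) for Fos, chr7:19310046-19310295 (minus) for Fosb, chr4:48045055-48045304 (plus) for Nr4a3, chr7:28379229-28379478 (minus) for Zfp36, chr5:90890995-90891244 (plus) for Cxcl1, chr5:90903649-90903898 (plus) for Cxcl2 and chr5:30012864-30013113 (plus) for Il6.
Fos: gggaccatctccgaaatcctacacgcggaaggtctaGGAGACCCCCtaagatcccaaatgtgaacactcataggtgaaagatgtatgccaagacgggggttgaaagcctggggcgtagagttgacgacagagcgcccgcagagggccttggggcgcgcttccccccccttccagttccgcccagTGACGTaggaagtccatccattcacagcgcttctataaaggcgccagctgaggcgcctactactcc
Fosb: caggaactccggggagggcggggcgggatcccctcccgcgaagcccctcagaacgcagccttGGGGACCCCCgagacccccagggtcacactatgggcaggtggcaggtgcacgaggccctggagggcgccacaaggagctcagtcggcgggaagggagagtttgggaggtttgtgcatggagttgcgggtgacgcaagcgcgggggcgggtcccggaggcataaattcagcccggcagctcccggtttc
Nr4a3: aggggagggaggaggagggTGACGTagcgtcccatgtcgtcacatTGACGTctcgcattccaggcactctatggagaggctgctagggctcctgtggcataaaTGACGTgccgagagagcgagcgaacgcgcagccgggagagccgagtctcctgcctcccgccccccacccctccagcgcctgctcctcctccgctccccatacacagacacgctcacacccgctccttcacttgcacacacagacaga
Zfp36: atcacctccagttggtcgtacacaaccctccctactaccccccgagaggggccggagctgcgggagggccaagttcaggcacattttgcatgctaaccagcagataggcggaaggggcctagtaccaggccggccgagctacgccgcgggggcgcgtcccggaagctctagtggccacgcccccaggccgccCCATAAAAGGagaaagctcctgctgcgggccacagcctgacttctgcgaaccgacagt
Cxcl1: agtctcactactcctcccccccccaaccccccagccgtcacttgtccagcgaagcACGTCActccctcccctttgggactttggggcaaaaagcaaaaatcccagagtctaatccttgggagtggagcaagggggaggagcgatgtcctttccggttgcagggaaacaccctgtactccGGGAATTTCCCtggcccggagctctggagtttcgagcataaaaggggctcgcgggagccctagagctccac
Cxcl2: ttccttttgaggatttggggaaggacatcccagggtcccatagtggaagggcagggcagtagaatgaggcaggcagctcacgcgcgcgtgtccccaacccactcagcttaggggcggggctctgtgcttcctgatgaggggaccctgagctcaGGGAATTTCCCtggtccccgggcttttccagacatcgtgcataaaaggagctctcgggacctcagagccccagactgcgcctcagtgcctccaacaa
Il6: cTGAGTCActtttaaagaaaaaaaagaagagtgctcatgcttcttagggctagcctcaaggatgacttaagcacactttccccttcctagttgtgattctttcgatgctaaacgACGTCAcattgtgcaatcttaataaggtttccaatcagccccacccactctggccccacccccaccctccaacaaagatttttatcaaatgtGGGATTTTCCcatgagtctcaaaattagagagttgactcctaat

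Fos holds 1 half-site and 1 kappa-B match, Fosb holds 1 kappa-B match, Nr4a3 holds 3 half-sites, and Zfp36 holds a CArG box. Cxcl1 and Cxcl2 each hold a kappa-B match that reads on both strands, Cxcl1 holds a half-site as well, and Il6 holds a kappa-B match, a half-site and an AP-1 match. Of 30 early-response genes fixed as a list, 24 had a promoter entry. The half-site was present in 10 of them (41.7%), against 7.29% of all 27025 genes with an entry. The CArG box was present in 3 (12.5%, against 1.62% of all genes) and the kappa-B site in 6 (25%, against 4.46%), while the AP-1 site was present in 0 (against 7.82%). Of 21 matched genes of the 28 in the inflammatory list, 7 (33.3%) held a kappa-B site and 8 (38.1%) an AP-1 site. The half-site was present in 4 of them (19%) and the CArG box in 0. A match describes letters in this window and is not a measured binding site. The 7 genes shown were chosen, and each holds at least 1 match. Of the other genes among the 10 largest rises, Egr4 and Il1a hold matches, while Csf2, Il1b and Tnf hold none.

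Haemoglobin itself differed by orders of magnitude and in all 4 genes. Hba-a1 stood at 0.995 CPM in FF_TAC 2, 0.631 in FF_TAC 3 and 0.492 in the library labelled KO_sham 2, against 168 and 183 in FF_TAC 1 and 4 and 233, 149 and 139 in KO_sham 1, 3 and 4. Hbb-bs stood at 2.67 CPM in FF_TAC 2, 1.07 in FF_TAC 3 and 0.799 in the library labelled KO_sham 2, against 277 and 288 in FF_TAC 1 and 4 and 362, 250.2 and 199 in KO_sham 1, 3 and 4. Hba-a2 was at 28.7 to 46.5 CPM in the high set and at most 0.126 in the low set, and Hbb-bt at 20.5 to 53.3 and at most 0.124. The alpha and the beta genes are near-identical copies, so the split of reads between the members of each pair is uncertain and the sum is the sounder value. In the whole series the sum fell under 100 CPM in 7 libraries: these 3 and all 4 KO_TAC libraries, which ran from 3.89 to 51.1 CPM. The lowest of the other libraries was AAV_sham 2 at 294 CPM.

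Some other red cell genes, which the split did not use, were lower with it. Of 14 erythroid genes, 7 had enough counts to be tested, and 4 of these were lower in the low set and none higher, by edgeR's quasi-likelihood test with group as a block and a Benjamini-Hochberg adjusted p under 0.05. Over all 15703 tested genes outside haemoglobin, 1.59% were lower. Alas2 stood at 0.0622 CPM in FF_TAC 2, 0.126 in FF_TAC 3 and 0.184 in the library labelled KO_sham 2, against 16.6 and 19.2 in FF_TAC 1 and 4 and 20.98, 12.6 and 12.8 in KO_sham 1, 3 and 4. Alas2 (chrX:150547375-150570638; gene spans are on GRCm38, from GENCODE M21) encodes the first enzyme of haem synthesis in red cell precursors (log2 difference -7.01, SE 0.37, adjusted p 5.76e-06), and no low library reached a high one. Slc4a1, the band 3 anion exchanger of the red cell membrane, had no count in any low library and 0.315 to 0.737 CPM in the high set (at least 7.82-fold lower against a floor of 3 counts over the set together; adjusted p 0.00718). Bpgm, Rhd and Fech did not pass (log2 -0.46 at adjusted p 0.0621, log2 0.14 at adjusted p 0.774 and log2 -0.0037 at adjusted p 0.986). In whole tissue, fewer cells of a type and less RNA per cell cannot be told apart.

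**Figure D1:**
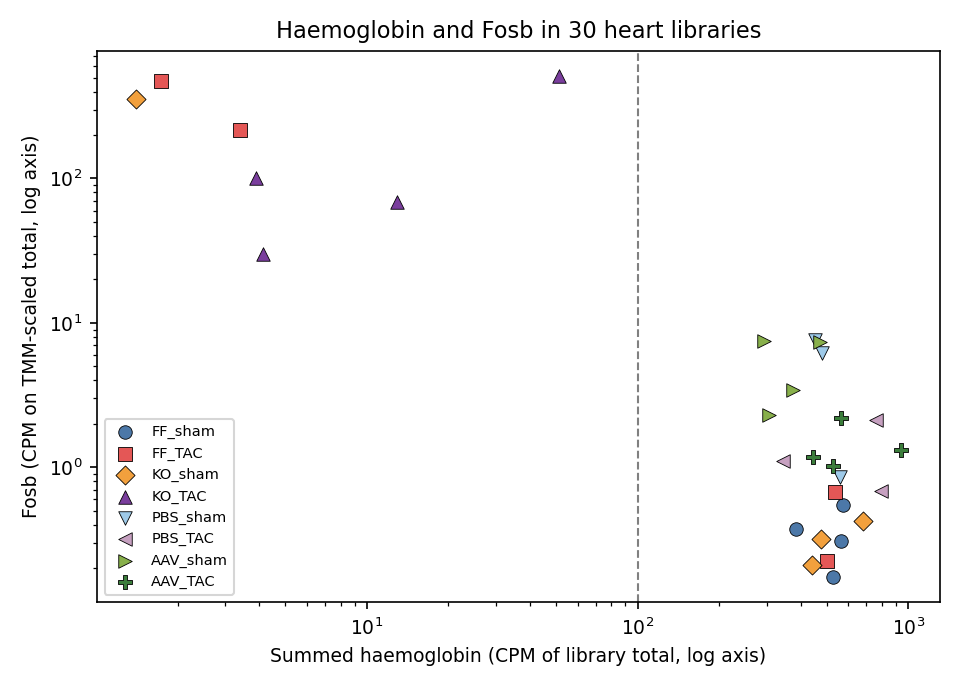
Summed haemoglobin (x axis, CPM of the library total, log axis) and Fosb (y axis, CPM on the TMM-scaled total, log axis) in the 30 libraries, 1 point per library, with colour and shape giving the group; the dashed line is the limit of 100 CPM. The 3 low libraries of FF_TAC and KO_sham sit at 218 to 476 CPM of Fosb and the 5 high ones at 0.210 to 0.680 CPM; the 4 KO_TAC libraries lie to the left of the limit, at 30.04 to 514 CPM.

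Some white blood cell genes and 1 platelet gene were also lower in the low set. Over all genes tested, 1.59% were called lower. Of 10 lymphocyte markers, 6 were tested and 4 were lower in the low set, and they included the B cell genes Cd79a, Cd79b and Ighm. The summed level of the list was 4.23 to 6.64 CPM in the low set and 12.1 to 23.1 in the high set. KO_TAC libraries, also haemoglobin-low, ran from 2.82 to 905 CPM, on both sides of the high set. Cd79b, part of the B cell receptor, was 0.124 to 0.253 against 0.737 to 1.36 CPM (log2 difference -2.27, SE 0.41, adjusted p 0.013). With all 16 floxed libraries in the fit none of the 4 was called, and without FF_TAC 3 only 1 was. S100a9 of neutrophils had 1 count in the low set and 0.379 to 0.839 CPM in the high set (adjusted p 0.00723), a ratio of 30.6 with a 95% counting interval of 5.29 to 1228. The S100a9 call was lost with all 16 floxed libraries and in KO_sham alone (adjusted p 0.0565 and 0.105). It was 1 of 2 neutrophil markers tested of 10. Ppbp, a platelet chemokine, was 0.0615 to 0.373 against 0.906 to 2.46 CPM (adjusted p 0.0176), while Pf4, also made by tissue macrophages, was 12.5 to 22.02 against 8.898 to 18.3 (adjusted p 0.416). Ppbp was the only call among 4 platelet markers tested of 8. The summed level of the platelet list overlapped, at 17.3 to 25.6 CPM in the low set and 14.8 to 25.6 in the high set. The Ppbp call was lost without FF_TAC 1 or FF_TAC 3 (adjusted p 0.0659 and 0.072).

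Across the transcriptome most of the large differences were rises. Of 15703 genes tested outside haemoglobin, 810 were called (5.16%): 561 higher in the low set (3.57%) and 249 lower (1.59%). Of the genes called, 92 were higher by 8-fold or more and 8 lower by as much. The median log2 difference over all genes was -0.0045. Every called gene had all low libraries beyond all high libraries of their own group, in both groups. Over all genes tested, 1683 (10.7%) lay above in that sense and 1557 (9.92%) below, and on CPM without TMM scaling 995 above and 2625 below. Single libraries moved the count of calls: it was 528 without FF_TAC 1, 409 without FF_TAC 3 and 403 without FF_TAC 4, and 2411 without the library labelled KO_sham 2, which leaves FF_TAC as the only group with both kinds. In that last fit 28 early-response and 27 inflammatory genes of the lists below were called.

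Early-response genes were higher in the low set almost without exception. Of 30 genes in the list, 29 were tested and 28 were called higher, none lower. The median log2 difference was 3.47, beside -0.0045 over all genes, and 28 were called in each of the 8 fits that left out a library. The Fos and Jun families form AP-1, the dimeric transcription factor that binds TGANTCA. Fosb stood at 218 CPM in FF_TAC 2, 476 in FF_TAC 3 and 354 in the library labelled KO_sham 2, against 0.224 and 0.680 in FF_TAC 1 and 4 and 0.426, 0.320 and 0.210 in KO_sham 1, 3 and 4. Fosb (chr7:19302696-19310051) had the largest rise under the naming rule (log2 difference 9.83, SE 0.36, adjusted p 8.04e-07), a fitted 910.3-fold, and its sets did not overlap in either group. Fos stood at 149 CPM in FF_TAC 2, 267 in FF_TAC 3 and 618 in the library labelled KO_sham 2, against 1.57 and 2.44 in FF_TAC 1 and 4 and 3.32, 1.76 and 2.52 in KO_sham 1, 3 and 4. Fos (chr12:85473890-85477273) was higher in the low set with log2 difference 7.33, SE 0.33, adjusted p 2.73e-06. The difference was 6.69 in FF_TAC and 7.92 in KO_sham (adjusted p of the difference 0.199). Junb was 450.01 to 655 CPM in the low set against 17.1 to 25.2 in the high set (log2 difference 4.78, SE 0.17, adjusted p 6.61e-07), Jun 349 to 608 against 55.4 to 91.5 (adjusted p 9.08e-05) and Jund 146 to 189 against 48.7 to 63.9 (adjusted p 1.73e-04). Fosl2 was 125 to 191 against 19.3 to 27.4 CPM (adjusted p 9.13e-06). Fosl1 was 0.738 to 13.01 against 0 to 0.160 CPM (adjusted p 0.00356) with 0.738 CPM in the library labelled KO_sham 2.

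The Egr family of zinc finger factors was higher in the low set too. Egr1 stood at 738 CPM in FF_TAC 2, 986 in FF_TAC 3 and 673 in the library labelled KO_sham 2, against 18.1 and 20.3 in FF_TAC 1 and 4 and 17.3, 12.7 and 15.2 in KO_sham 1, 3 and 4. The difference was 5.48 in FF_TAC and 5.48 in KO_sham (adjusted p of the difference 0.995), and the test over both groups gave log2 difference 5.48, SE 0.14, adjusted p 1.80e-07. Egr2 stood at 31.5 CPM in FF_TAC 2, 43.6 in FF_TAC 3 and 73.4 in the library labelled KO_sham 2, against 0.615 and 0.737 in FF_TAC 1 and 4 and 1.23, 1.17 and 0.944 in KO_sham 1, 3 and 4. Egr3 was 113 to 226 against 1.14 to 3.12 CPM (log2 difference 6.17, SE 0.29, adjusted p 3.09e-06). Egr4 had no count in any high library and 1.41 to 13.01 CPM in the low set, at least 227-fold higher against a floor of 3 counts over the 5 high libraries together (adjusted p 0.00219). The orphan nuclear receptors Nr4a1, Nr4a2 and Nr4a3 were 297 to 390.2 against 8.61 to 19.3 CPM, 5.85 to 39.97 against 1.04 to 1.52 and 60.6 to 72.9 against 2.78 to 6.34 (adjusted p 4.44e-06, 0.00105 and 7.73e-06). For Nr4a2 the difference was 2.51 in FF_TAC and 4.96 in KO_sham (adjusted p of the difference 0.0263). The KO_sham value rests on 1 low library, and with all 16 floxed libraries no gene was called for such a difference.

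Atf3 stood at 289 CPM in FF_TAC 2, 304 in FF_TAC 3 and 393 in the library labelled KO_sham 2, against 3.08 and 6.29 in FF_TAC 1 and 4 and 5.21, 5.06 and 6.34 in KO_sham 1, 3 and 4. Atf3 is a stress-induced repressor of the CREB family (log2 difference 6.05, SE 0.20, adjusted p 5.44e-07), and its low and high libraries did not overlap. Feedback genes were higher with the activators: Zfp36, which destabilises cytokine messages, at 451 to 878 against 18.6 to 21.8 CPM (log2 difference 4.96, SE 0.17, adjusted p 6.61e-07), Dusp1, a phosphatase of MAP kinases, at 219 to 335 against 49.4 to 72.6 (log2 difference 2.14, SE 0.15, adjusted p 4.10e-05), and Ier2, Ier3 and Ier5 with log2 differences of 3.32, 2.05 and 2.06. Myc was 39.6 to 56.05 against 3.303 to 5.04 CPM (adjusted p 8.65e-07), Btg2, an antiproliferative gene, 363 to 562 against 30.6 to 49.6 (adjusted p 6.80e-06), and Arc, best known from neurons, 27.5 to 54.2 against 2.34 to 6.01 (adjusted p 2.99e-04). Smaller differences were seen in Klf4 (log2 1.54 at adjusted p 0.00246, and 0.0881 with all 16 floxed libraries) and Klf6 (log2 1.72 at adjusted p 5.71e-06), and Maff, Gadd45b and Ccn1 had log2 differences of 3.62, 3.37 and 2.86. Srf, the factor that binds the CArG box and is present at rest, was the 1 tested member not called (log2 difference 0.30, SE 0.11, adjusted p 0.175), and Npas4, largely neuronal, had too few counts to test.

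**Figure D2:**
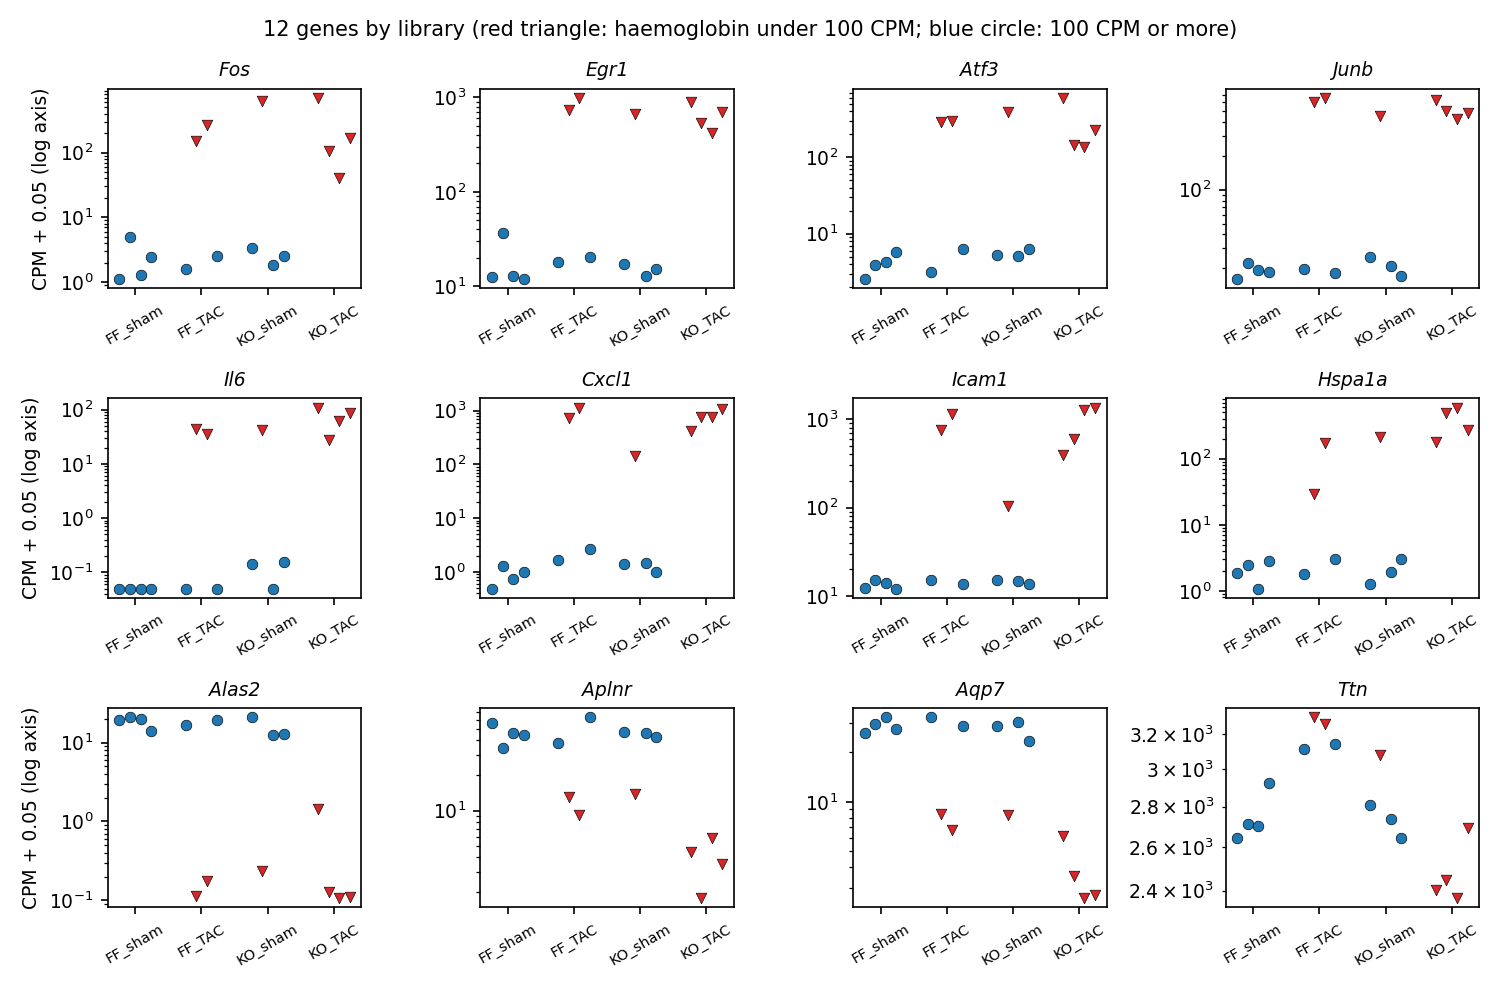
CPM plus 0.05 (log axes) of 12 genes in the 16 floxed-cohort libraries, 1 point per library in replicate order within each group; red triangles have haemoglobin under 100 CPM and blue circles 100 CPM or more. Fos, Egr1, Atf3, Junb, Il6, Cxcl1, Icam1 and Hspa1a are higher in every red library and Alas2, Aplnr and Aqp7 lower; Ttn, a sarcomere gene, runs from 2367 to 3302 CPM.

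Inflammatory genes were higher in the low set as a group. Of 28 cytokine, chemokine, adhesion and NF-kappa-B feedback genes, all were tested and 26 were called higher and none lower, with a median log2 difference of 5.36. The mean log2(CPM + 1) of the list was 4.67 to 5.95 in the low set and 1.52 to 1.78 in the high set. Il6 stood at 44.04 CPM in FF_TAC 2, 36.1 in FF_TAC 3 and 41.5 in the library labelled KO_sham 2, against 0 and 0 in FF_TAC 1 and 4 and 0.0947, 0 and 0.105 in KO_sham 1, 3 and 4. Il6 (chr5:30013114-30019981), the cytokine behind the acute phase response, held at most 2 counts in any high library, so its fold rests on few counts (log2 difference 9.72, SE 0.32, adjusted p 5.44e-07). The 3 low libraries lay close together. Cxcl1 stood at 733 CPM in FF_TAC 2, 1146 in FF_TAC 3 and 141 in the library labelled KO_sham 2, against 1.62 and 2.61 in FF_TAC 1 and 4 and 1.33, 1.44 and 0.944 in KO_sham 1, 3 and 4. The neutrophil chemoattractant Cxcl1 (chr5:90891241-90893115) was called with log2 difference 7.99, SE 0.41, adjusted p 4.97e-06. Its neighbour Cxcl2 (chr5:90903871-90905938) was 234, 290.1 and 53.8 CPM in the same low libraries and 0.112 to 0.373 in the high set (log2 difference 8.91, SE 0.45, adjusted p 4.88e-06). Il1b and Il1a, the interleukin 1 ligands, were 62.3 to 105 against 0.447 to 1.09 CPM (adjusted p 9.53e-07) and 13.5 to 23.1 against 0 to 0.157 (adjusted p 6.99e-06). Tnf (chr17:35199381-35202007) was 40.3 to 142 against 0.559 to 1.12 CPM (log2 difference 6.62, SE 0.39, adjusted p 1.19e-05). Csf2, a granulocyte and macrophage growth factor, had no count in a high library and 8.896, 15.7 and 0.0615 CPM in the low libraries, at least 256-fold higher over the set (adjusted p 0.00318). The value in the library labelled KO_sham 2 is 1 count, so the rise of Csf2 rests on FF_TAC 2 and 3.

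The monocyte chemokines Ccl2 and Ccl7 were 72.1 to 407 against 2.88 to 5.33 CPM (adjusted p 2.76e-04) and 54.7 to 109.7 against 2.097 to 4.21 (adjusted p 1.40e-05), and Ccl3 and Ccl4 11.3 to 16.8 against 0.0567 to 0.474 (adjusted p 3.35e-06) and 9.66 to 12.3 against 0.0567 to 0.521 (adjusted p 1.30e-05). Icam1 stood at 761 CPM in FF_TAC 2, 1154 in FF_TAC 3 and 105 in the library labelled KO_sham 2, against 14.99 and 13.5 in FF_TAC 1 and 4 and 15.2, 14.6 and 13.7 in KO_sham 1, 3 and 4. Icam1, Sele, Selp and Vcam1 are the adhesion molecules by which activated endothelium holds leukocytes. Icam1 was called with log2 difference 4.93, SE 0.62, adjusted p 0.0019, Sele was 39.7 to 459 against 1.01 to 2.31 CPM (adjusted p 6.17e-04), Selp 8.36 to 23.6 against 0.693 to 1.42 (adjusted p 3.75e-05) and Vcam1 97.5 to 197 against 17.2 to 25.1 (adjusted p 2.23e-05). The NF-kappa-B feedback genes Nfkbia, Tnfaip3 and Nfkbiz were 114 to 489 against 33.5 to 45.8 CPM (adjusted p 0.00126), 69.4 to 503 against 3.57 to 5.11 (adjusted p 2.24e-04) and 118 to 363 against 4.64 to 6.13 (adjusted p 1.04e-05). Socs3, the brake on Il6 signalling, was 119 to 253 against 5.101 to 7.35 (adjusted p 5.44e-07), and Ptgs2, the inducible cyclooxygenase, 27.2 to 46.4 against 0.283 to 1.99 (adjusted p 1.10e-05). The 2 members not called were Il1rn, the interleukin 1 receptor antagonist (log2 1.99 at adjusted p 0.1), and Il1rl1, the interleukin 33 receptor (log2 -0.61 at adjusted p 0.293). Csf1 and Lif were called at an adjusted p of 0.04 and 0.0489, and each call was lost in 6 of the 8 fits without a library: Csf1 without FF_TAC 1, FF_TAC 2, FF_TAC 3, FF_TAC 4, KO_sham 1 or KO_sham 4 (adjusted p 0.0676 to 0.198) and Lif without FF_TAC 1, FF_TAC 2, FF_TAC 3, FF_TAC 4, KO_sham 1 or KO_sham 3 (adjusted p 0.0879 to 0.197). Markers of macrophages, which make many of these cytokines, gave 1 call in each direction. Over 12 macrophage markers the median log2 difference was -0.20, and their summed level was 335 to 399 CPM in the low set and 334 to 804 in the high set.

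Heat shock genes were higher in part. Of 20 tested, 9 were called higher and none lower, with a median log2 difference of 0.34. For this and the lists that follow here, 3.57% of all genes tested were called higher and 1.59% lower. Some of the 9 heat shock calls were lost in up to 4 of the 8 edgeR fits that left out a library (adjusted p up to 0.0922). Hspa1a stood at 28.9 CPM in FF_TAC 2, 169 in FF_TAC 3 and 210.2 in the library labelled KO_sham 2, against 1.73 and 3.004 in FF_TAC 1 and 4 and 1.23, 1.86 and 2.99 in KO_sham 1, 3 and 4. Hspa1a and Hspa1b, the inducible Hsp70 genes, are near-identical, so the split between them is uncertain (log2 difference 6.04, SE 0.58, adjusted p 3.61e-04 for Hspa1a and log2 6.05 at adjusted p 9.39e-04 for Hspa1b). FF_TAC 2 was the lowest of the low libraries for both, yet above every high library. Dnajb1, an Hsp70 partner, was 42.8, 154 and 319 CPM in the same order against 14.7 to 20.5 (log2 difference 3.33, SE 0.42, adjusted p 0.00196), Hsp90aa1 316 to 371 against 127 to 155 (adjusted p 1.05e-04) and Hspb1 381 to 458 against 136 to 219.8 (adjusted p 5.74e-04). The constitutive Hspa8 differed by log2 0.63 at adjusted p 0.00318. Of 18 tested genes of the integrated stress response, in which phosphorylated eIF2-alpha favours Atf4, 5 were called higher: Atf4 (log2 1.36 at adjusted p 0.00124), Ddit3 (log2 1.19 at adjusted p 4.48e-04), Chac1 (log2 2.102 at adjusted p 9.12e-04), Ppp1r15a (log2 2.69 at adjusted p 7.73e-06) and Slc3a2 (log2 0.50 at adjusted p 0.0168), the last of which was lost without FF_TAC 3 or FF_TAC 4 (adjusted p 0.0736 and 0.0648). Without the library labelled KO_sham 2 the count was 11, in a fit that called 2411 genes in place of 810. The amino acid synthesis genes Psat1 and Phgdh, later Atf4 targets, did not pass (log2 -0.38 at adjusted p 0.374 and log2 0.14 at adjusted p 0.857), and of 17 chaperones of the endoplasmic reticulum none was higher and Sdf2l1 was lower at an adjusted p of 0.0486, a call lost in 7 of 8 fits when 1 library was omitted, with adjusted p up to 0.161.

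**Figure D3:**
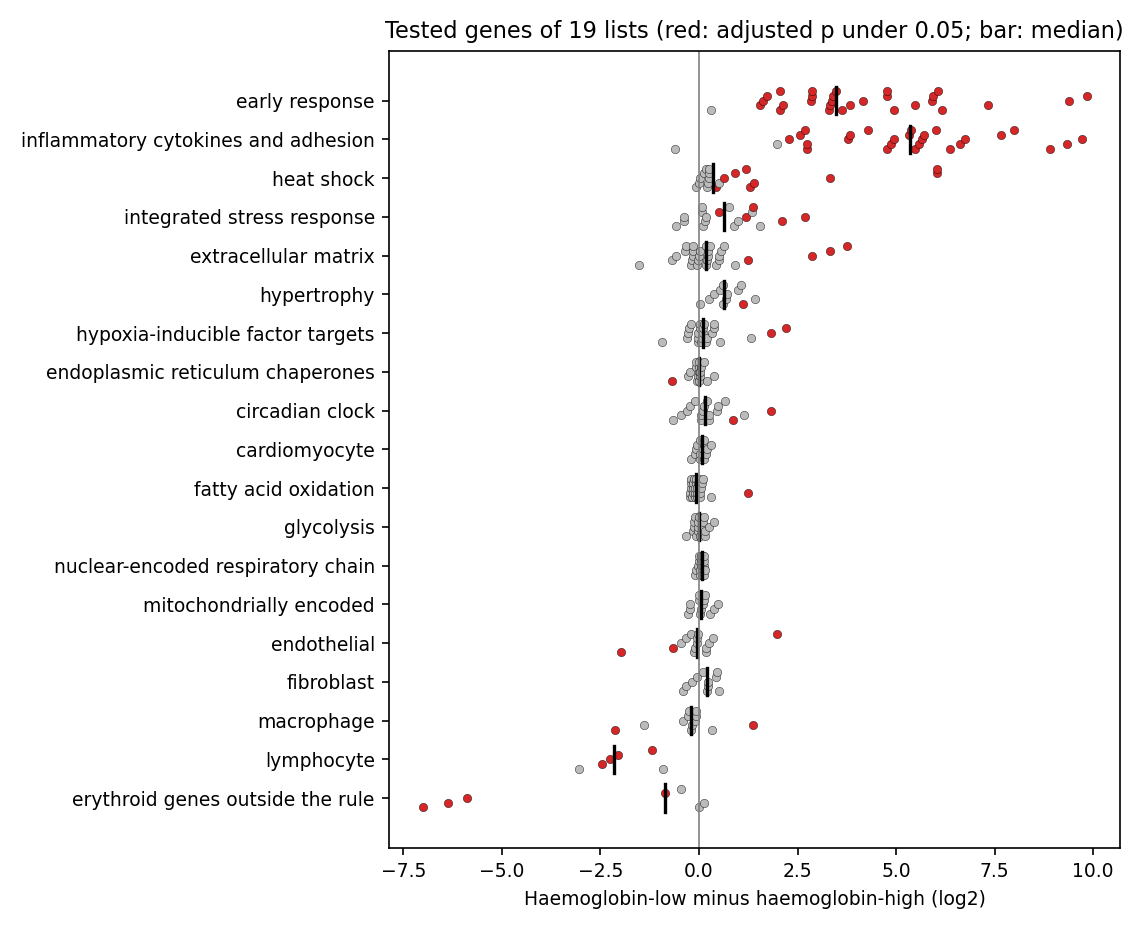
Log2 difference, haemoglobin-low minus haemoglobin-high, of every tested gene in 19 lists (1 point per gene, spread vertically for legibility); red points have an adjusted p under 0.05 in edgeR's quasi-likelihood test and the bar is the list's median. Early-response and inflammatory genes sit to the right with medians of 3.47 and 5.36, while cardiomyocyte, fatty acid oxidation and respiratory chain genes gather around 0.

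After Alas2, the genes with the largest falls under the naming rule included vascular, leukocyte and metabolic genes, and were smaller than the rises. Aplnr stood at 13.1 CPM in FF_TAC 2, 9.22 in FF_TAC 3 and 13.9 in the library labelled KO_sham 2, against 38.1 and 63.1 in FF_TAC 1 and 4 and 47.2, 45.7 and 42.7 in KO_sham 1, 3 and 4. Aplnr (chr2:85136225-85139923), the apelin receptor of endothelium, was called with log2 difference -1.98, SE 0.20, adjusted p 5.33e-04, and its sets did not overlap. Aqp7 stood at 8.34 CPM in FF_TAC 2, 6.69 in FF_TAC 3 and 8.24 in the library labelled KO_sham 2, against 32.8 and 28.9 in FF_TAC 1 and 4 and 28.8, 30.7 and 23.5 in KO_sham 1, 3 and 4. Aqp7 (chr4:41033074-41048139), a glycerol channel of capillary endothelium and fat, was called with log2 difference -1.92, SE 0.14, adjusted p 5.41e-05, again with no overlap. Ccr2, a chemokine receptor of monocytes, was 0.821 to 2.09 against 2.49 to 16.9 CPM (log2 difference -2.12, SE 0.36, adjusted p 0.00903), a call lost with all 16 floxed libraries (adjusted p 0.136). The high libraries of FF_TAC lay below those of KO_sham, and the low libraries lay below the high ones of their own group. Rtn4r, the Nogo receptor, was 1.99 to 4.29 against 4.98 to 15.8 CPM (adjusted p 0.0378), Lyl1, a blood and endothelial transcription factor, 0.933 to 4.06 against 5.04 to 8.95 (adjusted p 0.0187), and Atcay 0.311 to 2.09 against 4.07 to 6.91 (adjusted p 0.0333). AI480526 and A930016O22Rik, both without a settled function, were 1.49 to 6.64 against 12.7 to 18.96 (adjusted p 0.015) and 1.56 to 2.27 against 5.06 to 7.31 (adjusted p 0.00275). Calls were lost for AI480526 without FF_TAC 3 (adjusted p 0.0843), Lyl1 without FF_TAC 2, FF_TAC 3 or FF_TAC 4 (adjusted p 0.0619 to 0.088), Rtn4r without FF_TAC 1, FF_TAC 2, FF_TAC 4, KO_sham 1 or the library labelled KO_sham 2 (adjusted p 0.0508 to 0.125) and Atcay without FF_TAC 1, FF_TAC 3, FF_TAC 4, KO_sham 3 or KO_sham 4 (adjusted p 0.0594 to 0.111).

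Markers of the cells of the heart wall differed by list: 3 of 15 endothelial genes were called, and none of the cardiomyocyte, fibroblast and smooth muscle genes, beside 5.16% called over all genes. None of 14 cardiomyocyte genes was called, and their median log2 difference was 0.067. Ttn stood at 3302 CPM in FF_TAC 2, 3261 in FF_TAC 3 and 3076 in the library labelled KO_sham 2, against 3112 and 3140 in FF_TAC 1 and 4 and 2811, 2739 and 2643 in KO_sham 1, 3 and 4. Ttn, the sarcomere's spring protein, did not pass (log2 difference 0.11, SE 0.075, adjusted p 0.489), and Myh6, the adult myosin heavy chain, was 23617 to 30697 against 23367 to 28221 CPM (adjusted p 0.941). Without the library labelled KO_sham 2, 3 of the 14 were called, in a fit that called 2411 genes in place of 810. None of 11 fibroblast or 10 smooth muscle and pericyte genes was called (medians 0.19 and -0.013). Of 15 endothelial genes, Pecam1 (log2 0.18 at adjusted p 0.481) and Cdh5 (log2 -0.047 at adjusted p 0.887) did not pass, while the tight junction gene Cldn5 was higher at 51.96 to 146 against 17.8 to 25.9 CPM (log2 difference 1.98, SE 0.28, adjusted p 0.00356). Aplnr was lower, and Egfl7 was lower at an adjusted p of 0.043, a call that failed in 7 of 8 fits when 1 library was omitted, with adjusted p up to 0.142. Of the macrophage list, Csf1r (log2 -0.26 at adjusted p 0.348) and Adgre1 (log2 -0.19 at adjusted p 0.74) did not pass, and Timd4, a marker of resident macrophages, was higher at an adjusted p of 0.0283, lost in 6 of the 8 such fits, with adjusted p up to 0.112. Wt1, used here as a mesothelial marker and also induced in endothelium, was 16.3 to 30.2 against 4.78 to 7.13 CPM (log2 difference 1.81, SE 0.20, adjusted p 9.43e-04), while the other 5 mesothelial genes did not pass. Adipocyte genes summed to 0.124 to 0.568 CPM in the low set and 0.170 to 56.9 in the high set, the top of which came from KO_sham 4 and FF_TAC 1, and none of 6 was called. With log2 Myl7 as a covariate, all 105 called genes of the lists and the naming rule were called again. The part of adipose tissue in the result was not tested.

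Genes of energy metabolism, the subject of the study, are given beside the 5.16% called over all genes. Of 27 fatty acid oxidation genes 1 was called, Pdk4, the kinase that restrains pyruvate oxidation, at 491 to 583 against 148 to 303 CPM (log2 difference 1.23, SE 0.21, adjusted p 0.00925), a call lost with all 16 floxed libraries (adjusted p 0.158). The median of the list was -0.088. None of 19 glycolytic, 27 nuclear-encoded respiratory chain or 13 mitochondrially encoded genes was called, with medians of -0.014, 0.082 and 0.058. Without the library labelled KO_sham 2, 3 fatty acid oxidation and 2 glycolytic genes were called. The fit without that library called 2411 genes in place of 810, so its counts in this paragraph do not stand beside the 5.16%. Of 24 targets of hypoxia-inducible factor, Pfkfb3 (log2 2.21 at adjusted p 1.09e-04) and Bhlhe40 (log2 1.83 at adjusted p 4.66e-04) were higher and the rest did not pass. The list's median was 0.088. Vegfa and Pgk1 had log2 differences of 0.032 and -0.02 (adjusted p 0.907 and 0.95). Of 30 matrix genes 4 were higher and none lower (7 were called without the library labelled KO_sham 2), among them Thbs1, Ccn1 and Ccn2 (log2 3.74 at adjusted p 1.60e-04, log2 2.86 at adjusted p 2.60e-05 and log2 1.24 at adjusted p 0.0203). These secreted regulators are known to be induced early, and the fibrillar collagens Col1a1 and Col3a1 had differences of log2 -0.33 at adjusted p 0.502 and log2 -0.70 at adjusted p 0.358. The Ccn2 call was lost in 3 fits: Ccn2 without FF_TAC 2, FF_TAC 3 or KO_sham 3 (adjusted p 0.0507 to 0.0669). Of 12 hypertrophy genes only Rcan1, a calcineurin target, was called (log2 1.12 at adjusted p 0.0239), and it was lost in 4 fits: Rcan1 without FF_TAC 2, FF_TAC 3, FF_TAC 4 or KO_sham 3 (adjusted p 0.0554 to 0.0857). Nppa was 155, 505 and 1498 CPM in the low libraries and 106 to 446 in the high set (log2 difference 1.42, SE 0.54, adjusted p 0.191). The glucocorticoid-induced genes Sgk1, Cdkn1a and Errfi1 were higher among 12 tested (log2 1.25 at adjusted p 0.00697, log2 2.57 at adjusted p 0.0142 and log2 2.104 at adjusted p 0.00182). Cdkn1a and Plk2 (log2 1.07 at adjusted p 0.00371) were the called genes of 10 p53 targets. The Cdkn1a call was lost without FF_TAC 1 or FF_TAC 4 (adjusted p 0.0618 and 0.0793).

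The low minus high difference could be taken in each group separately, and the groups share no library. Of 16420 genes tested for a difference between FF_TAC and KO_sham in it, 475 were called (2.89%), 240 with a larger value in FF_TAC (1.46%) and 235 with a smaller one (1.43%). With all 16 floxed libraries sharing the estimate of spread there was no call, while 1780 genes reached an unadjusted p under 0.05. Leaving out single libraries gave 103 without FF_TAC 1, 110 without KO_sham 3, 188 without KO_sham 1, 198 without FF_TAC 2 and 865 without FF_TAC 3. The library labelled KO_sham 2 is the only low library of its group, so its own deviation and the group's difference cannot be told apart. Of the inflammatory list 10 of 28 differed, 9 of them with the larger rise in FF_TAC, while 3 of 29 early-response genes differed. The median difference of the inflammatory genes was 6.08 in FF_TAC and 4.06 in KO_sham, and that of the early-response genes 3.64 and 3.29. Icam1 had differences of 6.06 in FF_TAC and 2.85 in KO_sham (adjusted p of the difference 0.00421), Tnf of 7.92 in FF_TAC and 5.40 in KO_sham (adjusted p of the difference 0.00668), Nfkbia of 3.43 in FF_TAC and 1.65 in KO_sham (adjusted p of the difference 0.0049) and Cxcl2 of 11.09 in FF_TAC and 7.28 in KO_sham (adjusted p of the difference 0.0107). Socs3 went the other way, with 4.40 in FF_TAC and 5.19 in KO_sham (adjusted p of the difference 0.0476). Ptx3, a pentraxin of innate immunity, had differences of 7.05 in FF_TAC and 3.13 in KO_sham (adjusted p of the difference 0.0252) and Timp1, a protease inhibitor, of 2.28 in FF_TAC and -1.37 in KO_sham (adjusted p of the difference 0.0376), both with calls lost without FF_TAC 1 (adjusted p 0.0661 and 0.0787) among other libraries.

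Among called genes that averaged 5 CPM or more, those with the smallest value in FF_TAC relative to KO_sham were Sbk2, Cyp26b1 and H19. Sbk2 stood at 0.746 CPM in FF_TAC 2, 1.45 in FF_TAC 3 and 57.1 in the library labelled KO_sham 2, against 12.97 and 3.46 in FF_TAC 1 and 4 and 9.47, 7.67 and 23.7 in KO_sham 1, 3 and 4. H19, an imprinted long non-coding RNA, was 109 CPM in the library labelled KO_sham 2, 5.54 and 6.63 in FF_TAC 2 and 3 and 12.6 to 36.02 in the high set, with differences of -1.25 in FF_TAC and 1.78 in KO_sham (adjusted p of the difference 0.00421). Cyp26b1, which degrades retinoic acid, was 33.7 CPM in the library labelled KO_sham 2 and 4.51 to 17.5 in the high set. The Sbk2 call failed in 5 of 7 fits when 1 library was omitted and the Cyp26b1 call in 3 (adjusted p up to 0.142 and 0.0868). The library labelled KO_sham 2 also held the highest Myl7 of the 8, and the part of atrial tissue in these values was not tested. Cpt1a itself had differences of -1.18 in FF_TAC and 1.05 in KO_sham (adjusted p of the difference 0.00843): it was lower in the low libraries of FF_TAC and higher in that of KO_sham, and the test over both groups gave no call (log2 difference -0.11, SE 0.39, adjusted p 0.909). Over all genes tested, 1.43% were called with the smaller value in FF_TAC, and none with all 16 floxed libraries. The KO_sham value rests on 1 low library. Of 18 circadian clock genes, 5 differed between the groups, all with the larger value in KO_sham. Per2 was 51.5 CPM in the library labelled KO_sham 2 against 8.81, 14.9 and 11.3 in the other KO_sham libraries and 14.99 to 22.4 in FF_TAC, and Per3, Nr1d2, Tef and Hlf were the others. The time of day of collection is not given in the labels.

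**Figure D4:**
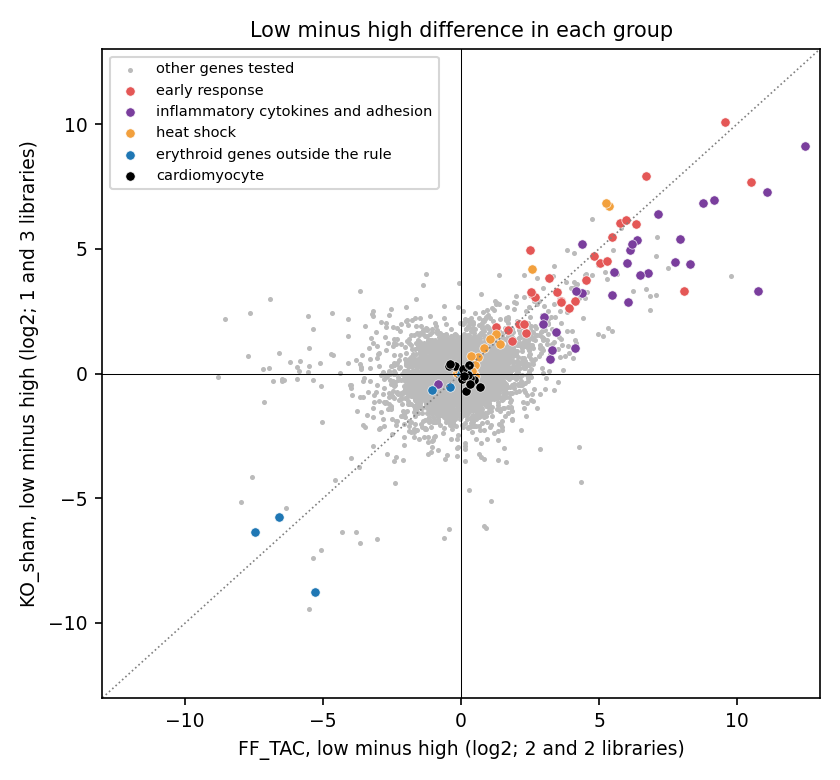
Log2 difference, low minus high, of each tested gene in FF_TAC (x axis, 2 and 2 libraries) and in KO_sham (y axis, 1 and 3 libraries); grey points are all genes and colours mark 5 lists, with the dotted line at equal differences. Early-response genes lie near the line (medians 3.64 and 3.29) and most inflammatory genes below it (6.08 and 4.06).

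The remaining libraries of the cohort were set beside these as levels. FF_sham hearts, all haemoglobin-high, gave Fosb at 0.173 to 0.550 CPM, Egr1 at 11.9 to 36.6, Cxcl1 at 0.436 to 1.21 and Alas2 at 13.996 to 20.8, which is the range of the high set or close to it. KO_TAC hearts, all haemoglobin-low, gave 30.04 to 514, 419 to 889, 421 to 1066 and 0.0565 to 1.39 CPM. Of the 561 genes called higher in the low set, 458 (81.6%) had every KO_TAC library above every FF_sham library, against 14.1% of all genes. Of the 249 called lower, 139 (55.8%) had every KO_TAC library below, against 15.1%. Every KO_TAC library lay above every FF_sham library for 26 of 29 early-response and 27 of 28 inflammatory genes, and for 27 of 30 matrix genes, while 21 of 27 fatty acid oxidation genes lay below. Of the matrix and fatty acid oxidation lists, 4 genes and 1 gene were called in the comparison of low with high libraries. In KO_TAC against FF_sham, genotype, surgery and haemoglobin level change together and cannot be told apart.

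The AAV9 cohort offered a graded comparison, because its 14 libraries all lay above the limit, between 294 and 943 CPM of haemoglobin. With a slope on log2 haemoglobin and the 4 groups as a block, none of 16243 genes outside haemoglobin was called (0%) by edgeR, with a smallest adjusted p of 0.073 and 301 genes at an unadjusted p under 0.05. That last count was 122 without PBS_TAC 2, 178 without PBS_TAC 3, 187 without AAV_sham 2 and 686 without PBS_sham 3. DESeq2 called none either, and limma voom with sample weights called 1, Alas2. Per doubling of haemoglobin, Alas2 had a slope of 1.07 log2 units (SE 0.25, unadjusted edgeR p 8.16e-04) and Slc4a1 one of 1.90 (SE 0.42). Fosb had a slope of 0.059 with an SE of 0.63, and Fos one of -0.49 with an SE of 0.36. Early-response levels in this cohort lay between the sets: Fos was 5.15 to 35.6 CPM (median 12.9) and Egr1 26.4 to 202 (median 82.3). Inflammatory levels overlapped the high set, with Il6 at most 0.339 CPM and Cxcl1 at 0.981 to 7.78. The mean log2(CPM + 1) of the early-response list was 6.74 to 7.10 in the low set, 3.34 to 3.60 in the high set and 4.02 to 5.03 in the AAV9 cohort. That of the inflammatory list was 4.67 to 5.95, 1.52 to 1.78 and 1.47 to 2.19. The heat shock list gave 7.69 to 8.07, 6.69 to 7.01 and 6.93 to 8.27, so that AAV_sham 3 (8.27) and PBS_sham 2 (8.26), both haemoglobin-high, lay above the low set. The gap between the cohorts was not tested.

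**Figure D5:**
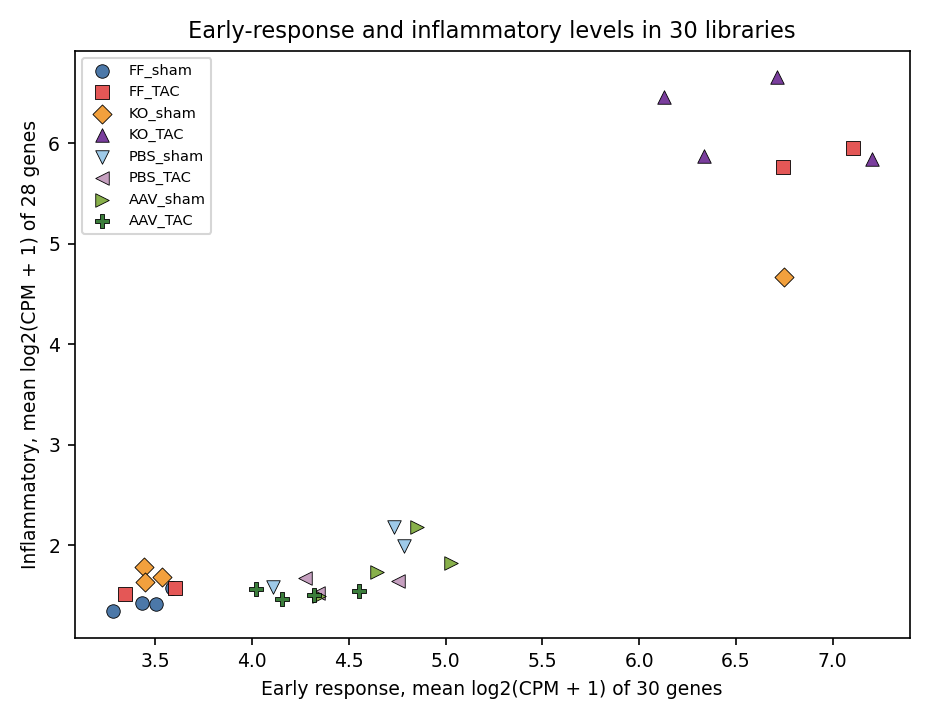
Mean log2(CPM + 1) of the 30 early-response genes (x axis) and of the 28 inflammatory genes (y axis) in the 30 libraries, 1 point per library, coloured by group. FF_TAC 2 and 3, the library labelled KO_sham 2 and the 4 KO_TAC libraries stand at the upper right; the AAV9 cohort reaches 5.03 on the x axis but only 2.19 on the y axis.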

How the data were processed

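Polyadenylated RNA of 30 mouse hearts was sequenced, and the authors deposited 1 table of raw read counts per gene, aligned with HISAT2 2.1.0 to GRCm38 and counted with featureCounts of Subread 1.5.1, per the submitters' processing notes. The annotation release, strand setting and treatment of multimapping reads are not given in the sources used here. Of 55487 gene identifiers, 55141 matched a symbol in GENCODE M21, and the rest, with 0.0192% of the counts, were left out where a symbol was needed. The members and gene lists were chosen with earlier results of these data known. Sets were formed from the haemoglobin sum in CPM of the unscaled library total, at a limit of 100. Low and high libraries were compared by edgeR 4.0.16 (filterByExpr, TMM, quasi-likelihood test, R 4.3.3) with group as a block. A second fit took the difference in each group and its interaction, and the last took a slope on log2 haemoglobin in the AAV9 cohort. Adjusted p-values are Benjamini-Hochberg over all genes tested, and a gene was called under 0.05. Printed levels are CPM on totals scaled by TMM over all 30 libraries. The 10 largest rises and falls named had every low library beyond every high library of its own group and averaged 5 CPM or more in the set where they were higher, and for the interaction the 3 largest each way were named. On simulated counts the comparison of low with high libraries, over 15707 genes, recovered 68% of genes changed by 1 log2 unit and 95% of those changed by 3. The interaction recovered fewer, 25.5% and 80%. The AAV9 slope recovered 58.6% and 96%, but there the changes were 1 and 3 log2 units per doubling of haemoglobin. Smaller slopes were not simulated. Library pairs within FF_TAC and KO_sham differed by a chi-square of 9.67 to 67.6 per degree of freedom, so none was counted as a duplicate. Alternatives were DESeq2 1.42.0, limma 3.58.1 (voom), other filters, size factors and covariates, and each library left out. Some called genes of the lists and the naming rule are not reported here. Bounds and intervals on folds cover counting error only.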

Additional observations from a re-analysis of the deposited data

Results flagged for a closer look

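In 165 groups of 4 or 5 libraries tested by Dixon's criterion, 16 held a library that stood apart from its group. Chance flags about 1 in 20 groups of independent, normally distributed values. Here gene levels were tested as unlogged CPM and the groups reuse the same libraries, so that rate is no measure for these flags. KO_TAC 1 accounted for 10 of these. Its Fosb was 514 CPM against 30.04 to 101 in the other KO_TAC libraries, its Alas2 1.39 against 0.0565 to 0.0755, its Ccr2 2.98 against 0.508 to 0.831 and its Tnf, lower, 63.2 against 112 to 122. Sbk2 was 181 CPM there against 0.227 to 1.33, and Atcay 4.96 against 0.301 to 0.395. Its mean log2(CPM + 1) was 9.83 for atrial genes against 4.16 to 4.59 in the others, 3.91 for mesothelial genes against 0.61 to 0.97, 2.37 for Schwann and nerve genes against 0.995 to 1.13, and 2.50 for lung and airway genes against 0.21 to 0.22. In FF_sham, Sbk2 was 98.1 CPM in replicate 2 against 9.66 to 10.8 and Rtn4r 12.9 in replicate 1 against 6.06 to 6.904. Among the 5 haemoglobin-high libraries, FF_TAC 4 stood apart in Cyp26b1 (17.5 CPM against 4.51 to 5.76) and in the mean log2(CPM + 1) of neutrophil genes (0.231 against 0.33 to 0.37). FF_TAC 1 stood apart in lung and airway genes (0.853 against 0.14 to 0.25) and KO_sham 4 in nuclear-encoded respiratory chain genes (9.28 against 9.47 to 9.51).

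For 9 named genes the low minus high difference itself differed between FF_TAC and KO_sham in edgeR's interaction test. It was larger in FF_TAC for Cxcl2 by 3.81 (11.09 in FF_TAC and 7.28 in KO_sham, adjusted p 0.0107), Tnf by 2.53 (7.92 in FF_TAC and 5.40 in KO_sham, adjusted p 0.00668), Timp1 by 3.65 (2.28 in FF_TAC and -1.37 in KO_sham, adjusted p 0.0376) and Ptx3 by 3.93 (7.05 in FF_TAC and 3.13 in KO_sham, adjusted p 0.0252). It was smaller in FF_TAC for AI480526 by -1.88 (-2.96 in FF_TAC and -1.08 in KO_sham, adjusted p 0.0454), Sbk2 by -4.97 (-2.91 in FF_TAC and 2.06 in KO_sham, adjusted p 0.0438), Cyp26b1 by -3.33 (-0.61 in FF_TAC and 2.72 in KO_sham, adjusted p 0.0275), H19 by -3.04 (-1.25 in FF_TAC and 1.78 in KO_sham, adjusted p 0.00421) and Cpt1a by -2.23 (-1.18 in FF_TAC and 1.05 in KO_sham, adjusted p 0.00843). The KO_sham value rests on 1 low library, the one labelled KO_sham 2, whose Cpt1a goes against its label. None of the 9 was called when all 16 floxed libraries shared the estimate of spread.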

How the results depend on the processing

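The 810 calls between low and high libraries became 2384 with limma voom and sample weights (1283 higher, 1101 lower), 1416 in FF_TAC alone (808 and 608) and 22 with a replicate block, all higher. Without single libraries they ranged from 403 to 2411. Under RLE size factors, DESeq2, other filters, all 16 floxed libraries, KO_sham alone, a haemoglobin slope, a changed library size or a Myl7 covariate the count stayed within 1.5 times the reported one. Whether the replicate numbers pair the samples is not known. Replicates 1 and 4 are haemoglobin-high in both groups, and replicate 2 is haemoglobin-low in both. With the replicate block the low minus high difference therefore rests on FF_TAC 3 against KO_sham 3. The fall to 22 calls thus cannot show whether a batch is shared. Deviations from the group mean of equally numbered FF_TAC and KO_sham libraries correlated at 0.0081, 0.27, -0.27 and 0.22. Among them, 1 of 4 FF_TAC and 0 of 4 KO_sham libraries correlated best with their own number. These deviations still hold the low minus high difference, so they cannot show whether equally numbered libraries share a batch. With the block, 10 early-response and 4 inflammatory genes were called. In the AAV9 cohort 7 of 19 pairs correlated over 0.1, and the block gave 0 calls. The 475 interaction calls became 970 with DESeq2, 1360 without a filter and 0 with all 16 floxed libraries, and ranged from 103 to 865 without single libraries. The interaction could not be fitted without the library labelled KO_sham 2. The 0 calls of the AAV9 slope became 1 with voom (Alas2, adjusted p 7.11e-04) and 1 without a filter (Slc7a10, -10.78, adjusted p 0.0353), and ranged from 0 to 1 without single libraries (Alas2 without PBS_sham 3, adjusted p 0.0127). On CPM without TMM scaling, an alternative chosen after seeing the data, 995 genes in place of 1683 had every low library above its own group's high ones and 2625 in place of 1557 below. Directions reversed only for genes that were not called: Cpt1a (-0.11) was 1.05 in KO_sham alone and 0.17, 0.13 and 0.22 without FF_TAC 1, 2 or 3, Myl7 was 2.20 in KO_sham alone, 1.70 with the replicate block and 2.13, 0.69, 0.68 and 1.81 without FF_TAC 1, 2 or 3 or KO_sham 4, the AAV9 slope of Fosb (0.059) was -0.067 with voom and -0.11, -0.25, -0.23, -0.099 and -0.018 without PBS_TAC 2 or 3, AAV_sham 1 or 4 or AAV_TAC 4, and that of Fos was 0.85 with the replicate block. Over all omissions Cpt1a ran from -1.18 to 0.22, Myl7 from -8.57 to 2.13 and the Fosb slope from -0.25 to 0.29. The lack of a call refers to the reported fits. Without the library labelled KO_sham 2, Cpt1a was called lower by edgeR (-1.18, adjusted p 0.00323). As given above, its difference was negative in FF_TAC and positive in KO_sham. No call among the 105 list and named genes reversed, and 90 of them missed the threshold with the replicate block, 21 of 102 in KO_sham alone and 17 with all 16 floxed libraries. Apart from the stated limit of the replicate block, the causes of these shifts were not tested.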

Other observations

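Of 18 circadian clock genes, 2 were called between the low and high libraries, Bhlhe40 and Nfil3, a repressor of output genes (12.1 to 18.04 against 7.62 to 9.69 CPM, log2 difference 0.85, SE 0.15, adjusted p 0.0124). Beside these and the long non-coding RNAs below, 5.16% of all genes tested were called. The Nfil3 call was lost with all 16 floxed libraries and in FF_TAC alone (adjusted p 0.117 and 0.0833). The core activator Arntl was 1.23 to 8.896 against 3.797 to 11.4 CPM (adjusted p 0.755). Of 5 long non-coding RNAs tested, Neat1, the scaffold of nuclear paraspeckles, was called at 1517 to 2757 against 1196 to 1348 CPM (log2 difference 0.69, SE 0.17, adjusted p 0.047), and Malat1, its neighbour, was 1097 to 1457 against 734 to 1005 (adjusted p 0.05). The Neat1 call failed in 7 of 8 fits when 1 library was omitted, with adjusted p up to 0.117. Csf3, the granulocyte growth factor, was 2.24 and 2.15 CPM in FF_TAC 2 and 3 and 0.492 in the library labelled KO_sham 2, with 1 count over the 5 high libraries, a ratio of 153 with a 95% counting interval of 26.7 to 6119. In KO_TAC it was 0.680 to 7.74 CPM. Across the 15703 genes the FF_TAC and KO_sham differences had a Pearson r of 0.38 and a Spearman rho of 0.064, as a description of genes that are not independent. Of all 15703 genes, 2286 were called in the FF_TAC term and 476 in the KO_sham term, which rests on 1 low library. Both terms called 289 genes, of which 268 had the same sign. These were 12.6% of the FF_TAC calls, beside 476 of 15703 over all genes. They were 60.7% of the KO_sham calls, beside 2286 of 15703.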
